A study of Mus musculus with 4 samples.

Results

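The genes described here are the mouse olfactory receptors whose symbols run from Olfr987 to Olfr1318. They are defined by that number alone, and the range was chosen with earlier results of these data known. Of 332 numbers in the range, 233 had a probe set paired with a single gene, and these 233 receptors are the members, out of 1015 Olfr genes and 19938 genes measured in this way. A further 11 numbers were present only in probe sets that list several genes, and 88 were in none of the probe sets used here. The RefSeq annotation places all 233 on chromosome 2, lists 231 as protein coding and 2 as pseudogenes, and gives 227 of them a MOR family number, a grouping of mouse receptors by protein sequence, over 48 families.

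RNA came from the lining of the nasal septum and turbinates of mice 8 weeks old, a tissue that holds both olfactory and respiratory epithelium, and was measured on Affymetrix arrays. There were 4 arrays in 4 groups: Duox2-/- given flagellin, Duox2-/- given PBS, wild type given flagellin and wild type given PBS. Flagellin, the building protein of bacterial flagella, was given at 5 ug/ml, 25 ul of solution went into each nostril, and the time was 4 h. The strain of all mice is written C56BL/6. Whether an array holds RNA of a single mouse or of a pool, and how the Duox2 allele was made, are not given in the sources used here. Each group had 1 array, so no pairwise difference below has a replicate check, and p-values are given only from the additive model described further on. Duox2 itself, an oxidase that makes hydrogen peroxide at epithelial surfaces, had log2 values of 5.50 and 5.23 in the Duox2-/- flagellin and PBS arrays, against 5.12 and 4.95 in the wild-type flagellin and PBS arrays. The values were not lower in the arrays labelled Duox2-/-, but all are near background, below the all-gene lower quartile of 5.44 to 5.79 in each array, and the position of the probes relative to the allele is not known, so they do not check the labels. The groups are named by their labels throughout.

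Odorant receptors are G protein-coupled receptors in the cilia of olfactory sensory neurons. A mature neuron as a rule expresses a single receptor gene from a single allele, so each receptor's RNA comes from a small scattered set of neurons, and receptors of different families are restricted to different zones of the epithelium. Odour binding activates the G protein Gnal, the adenylyl cyclase Adcy3 and a cyclic nucleotide-gated channel that includes Cnga2. Apart from the 2 pseudogenes, Olfr1010 and Olfr1174, the members share this role of receptor, and the text therefore groups them by position and by family.

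Most members gave low values, and the values shifted together between arrays. Their median log2 value was 5.42 (Duox2-/- flagellin), 5.24 (Duox2-/- PBS), 5.18 (wild-type flagellin) and 4.64 (wild-type PBS). The median over all 19938 genes was 6.85, 6.86, 6.85 and 6.84 in the same order, which RMA sets nearly equal between arrays. Genes other than Olfr with means in the members' quartile range had medians of 5.60, 5.50, 5.31 and 5.26, so genes of like signal also differed between the arrays, though over a narrower range. The wild-type PBS array was the lowest of the 4 for 157 members (67.4%), against 29.1% of all genes, and the Duox2-/- flagellin array was the highest for 139 members (59.7%), against 35.9% of all genes. The descending order Duox2-/- flagellin, Duox2-/- PBS, wild-type flagellin, wild-type PBS was found in 77 members (33%), in 32.2% of the 782 other Olfr genes and in 14.6% of all genes. In a bulk sample, fewer neurons that express a receptor and less receptor RNA in each neuron cannot be told apart.

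**Figure D1:**
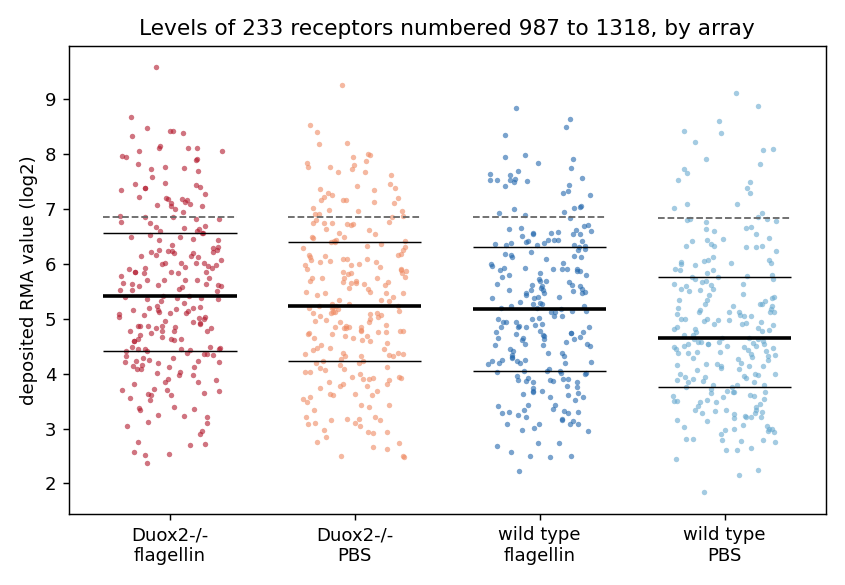
Log2 values of the 233 members in each array, from the Duox2-/- flagellin array to the wild-type PBS array. Points are members, black lines the median and quartiles, and dashed lines the median of all genes. The member medians are 5.42, 5.24, 5.18 and 4.64, with the wild-type PBS array lowest.

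A probe set's value depends on its own probes as well as on its transcript, so values do not rank receptors by amount. As a description of signal, the members' 4-array means lay between 2.27 and 9.20, with quartiles of 4.12, 5.13 and 6.19. The members at or above the all-gene median numbered 46 (19.7%), 38 (16.3%), 31 (13.3%) and 21 (9.01%) in that order of arrays. At the ends of the number range, Olfr987 had 7.11, 6.96, 6.71 and 6.79 in the Duox2-/- flagellin, Duox2-/- PBS, wild-type flagellin and wild-type PBS arrays, and Olfr986 just outside it had 5.71, 5.51, 5.32 and 4.72. At the other end Olfr1317 had 3.85, 3.68, 3.62 and 3.54 in that order, and Olfr1320 outside it had 6.34, 5.94, 5.81 and 4.80. Olfr1318 was measured only in a probe set shared with Olfr1317, at 5.02, 4.59, 4.76 and 3.77.

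The 10 members with the highest 4-array means, from 7.69 to 9.20, gave different directions in different comparisons. Olfr1174, which RefSeq lists as a pseudogene, had 9.58 and 9.27 in the Duox2-/- flagellin and PBS arrays, and 8.84 and 9.12 in the wild-type flagellin and PBS arrays. Olfr1036 had 8.39 and 8.53 in the Duox2-/- flagellin and PBS arrays, and 8.64 and 8.87 in the wild-type flagellin and PBS arrays. In both genes the wild-type flagellin array lay below the wild-type PBS array. Of the 10, 8 were below 0 for flagellin minus PBS in wild type, and 8 were below 0 for Duox2-/- minus wild type under PBS. Both comparisons subtract the wild-type PBS array. Below 0 were 3 of the 10 for flagellin in Duox2-/- and 2 of the 10 for genotype after flagellin, so there most lay above 0 like the other members. The exceptions to the first were Olfr1274, with 8.67, 8.20, 7.91 and 6.92 in the 4 arrays as ordered above, and Olfr1155, whose values stayed between 7.81 and 7.94. Family MOR174 supplied 4 of the 10, namely Olfr1155, Olfr1157, Olfr1174 and Olfr1176.

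The sequence before the annotated start of 6 of these receptors is shown, 3 that the additive model called higher with flagellin (Olfr1097, Olfr1208 and Olfr1225) and 3 of the 10 with the highest signal (Olfr1036, Olfr1157 and Olfr1274). They were chosen after their values were seen, among those whose annotated start is not the ATG of the coding sequence, and are the 250 bases 5′ of that start from RefSeq (GRCm38.p6). Capitals mark matches to TAATNA on either strand, a core of the kind that homeodomain factors such as Lhx2 recognise. The windows are chr2:86892164-86892413 on the minus strand for Olfr1097, chr2:88897649-88897898 on the minus strand for Olfr1208, chr2:89171246-89171495 on the minus strand for Olfr1225, chr2:86074454-86074703 on the plus strand for Olfr1036, chr2:87968258-87968507 on the minus strand for Olfr1157 and chr2:90400390-90400639 on the plus strand for Olfr1274.
Olfr1097: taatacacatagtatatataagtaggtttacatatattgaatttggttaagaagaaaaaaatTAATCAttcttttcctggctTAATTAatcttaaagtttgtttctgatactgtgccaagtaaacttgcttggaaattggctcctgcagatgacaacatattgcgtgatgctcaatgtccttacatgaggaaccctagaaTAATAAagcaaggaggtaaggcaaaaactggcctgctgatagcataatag
Olfr1208: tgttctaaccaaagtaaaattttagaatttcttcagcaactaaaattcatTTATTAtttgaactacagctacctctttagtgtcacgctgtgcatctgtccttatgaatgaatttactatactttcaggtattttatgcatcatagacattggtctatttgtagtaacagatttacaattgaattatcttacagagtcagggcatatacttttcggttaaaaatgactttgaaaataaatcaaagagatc
Olfr1225: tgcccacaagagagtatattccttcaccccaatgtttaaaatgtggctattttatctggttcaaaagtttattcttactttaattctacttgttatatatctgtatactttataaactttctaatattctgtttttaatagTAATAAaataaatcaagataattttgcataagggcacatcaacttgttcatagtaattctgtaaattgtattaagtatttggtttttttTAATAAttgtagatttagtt
Olfr1036: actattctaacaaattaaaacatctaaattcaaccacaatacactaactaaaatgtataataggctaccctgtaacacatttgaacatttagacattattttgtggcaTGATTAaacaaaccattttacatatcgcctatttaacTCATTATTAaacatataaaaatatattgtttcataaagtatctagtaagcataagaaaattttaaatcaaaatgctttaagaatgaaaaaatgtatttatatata
Olfr1157: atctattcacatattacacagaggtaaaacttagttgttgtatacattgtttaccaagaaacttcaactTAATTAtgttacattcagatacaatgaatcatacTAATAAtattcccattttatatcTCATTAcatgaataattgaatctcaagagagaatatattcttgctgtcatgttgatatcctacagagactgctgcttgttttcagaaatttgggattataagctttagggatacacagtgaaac
Olfr1274: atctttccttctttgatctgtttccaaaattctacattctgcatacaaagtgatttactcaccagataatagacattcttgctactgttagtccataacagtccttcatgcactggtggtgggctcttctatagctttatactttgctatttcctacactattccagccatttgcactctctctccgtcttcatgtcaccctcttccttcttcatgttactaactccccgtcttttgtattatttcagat

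The 6 windows hold 3, 1, 2, 3, 3 and 0 matches in that order, so the receptors called higher with flagellin and those with high signal do not separate by this count. RefSeq had 193 windows for 191 members. Their median share of A and T was 69.2%, against 65.2% in other Olfr genes and 47.6% in all 32851 promoters. TAATNA on either strand was present in 147 of the 193 member windows (76.2%), in 60.9% of windows of other Olfr genes and in 24.3% of all promoters. TAATTA, a subset of TAATNA, was present in 25.4%, 16.2% and 4.84% of the same sets. CCCNNGGG, a form of the site that Ebf factors bind, was present in 2.59%, 2.8% and 11.8%. In 138 member windows (71.5%, against 5.83% of all promoters) the annotated start is the ATG itself, so such a window may not be the promoter. In the other 55 windows the shares were 29.1% for TAATTA, 81.8% for TAATNA and 9.09% for CCCNNGGG. A match is a description of the letters and not a binding site.

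In wild type, flagellin minus PBS was above 0 for 178 of 233 members (76.4%), with a median log2 difference of 0.27 against 0.01 over all genes. It was above 0 for 52.1% of all genes and for 56.5% of genes other than Olfr with like signal. At least 2-fold higher were 27 members (11.6%), where 0.838% of all genes were, and the only member at least 2-fold lower was Olfr1047 (0.0552% of all genes were lower). The other Olfr genes had a median of 0.23, with 52 of 782 (6.65%) at least 2-fold higher. The highest member was Olfr1257, at 6.39 with flagellin and 3.94 with PBS, a log2 difference of 2.46. The PBS value lies below the all-gene lower quartile of that array, 5.44, and so near background, where the size of a difference is uncertain. The next were Olfr1016 at 1.66, Olfr1295 at 1.60, Olfr1240 at 1.57, Olfr1259 at 1.54 and Olfr1018 at 1.53 on the log2 scale. The wild-type PBS array was the lowest of the 4 for each of these 6 receptors. The wild-type PBS values of Olfr1295, Olfr1259 and Olfr1018 also lay below 5.44.

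In the arrays labelled Duox2-/-, flagellin minus PBS was above 0 for 168 members (72.1%), with a median of 0.15 against -0.01 over all genes. It was above 0 for 48.7% of all genes. Genes other than Olfr with like signal were above 0 in 69.3%, with a median of 0.12, both near those of the members. At least 2-fold higher were 10 members (4.29%), against 0.221% of all genes and 0.152% of the genes of like signal. Lower by that size were 3 members (1.29%), against 0.466% of all genes. The other Olfr genes had a median of 0.18 and 16 of 782 (2.05%) at least 2-fold higher. The 10 higher members were Olfr1097 at 1.53, Olfr1263 at 1.35, Olfr1253 at 1.27, Olfr1200 at 1.20, Olfr1178 at 1.19, Olfr1290 at 1.17, Olfr1261 at 1.15, Olfr1257 at 1.13, Olfr1251 at 1.08 and Olfr1262 at 1.01 on the log2 scale. All 10 were above 0 in wild type as well, the lowest being Olfr1178 at 0.20. The Duox2-/- PBS values of Olfr1097, Olfr1253, Olfr1178, Olfr1290, Olfr1261, Olfr1257 and Olfr1251 lay below that array's all-gene lower quartile, 5.69, and so near background. The 3 lower members were Olfr1002, Olfr1167 and Olfr1052, at -1.25, -1.13 and -1.05. Olfr1167 had 3.98 and 5.12 in the Duox2-/- flagellin and PBS arrays, against 4.32 and 4.16 in the wild-type flagellin and PBS arrays. Its wild-type arrays thus did not share the difference. All its values lay below the all-gene lower quartile of the array, and so near background.

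Between genotypes, Duox2-/- minus wild type under PBS was above 0 for 188 members (80.7%), with a median of 0.40 against 0.04 over all genes and 0.25 for the members after cyclic loess. It reached 2-fold for 38 members (16.3%; 1.34% of all genes) upward and for 0 members (0.226% of all genes) downward. After flagellin the genotype difference was above 0 for 180 members (77.3%), with a median of 0.30 against 0.01 over all genes. That median was 0.19 after quantile normalisation and 0.12 after cyclic loess. Then 5 members (2.15%; 0.476% of all genes) reached 2-fold upward and 0 downward (1.18% of all genes). Of the other Olfr genes 12.4% reached 2-fold upward under PBS and 4.09% after flagellin. Genes other than Olfr with like signal were above 0 in 81.0% under PBS and 80.6% after flagellin, shares near those of the members. Fewer of these genes than of the members reached 2-fold upward, 1.23% under PBS and 0.646% after flagellin. The 5 members that reached 2-fold after flagellin were Olfr1301 at 1.58, Olfr1302 at 1.42, Olfr1178 at 1.39, Olfr1263 at 1.13 and Olfr1265 at 1.08. Of these, Olfr1302 and Olfr1178 lay below the all-gene lower quartile in each array, and so near background. Olfr1301 had 8.12 and 7.20 in the Duox2-/- flagellin and PBS arrays, against 6.54 and 6.64 in the wild-type flagellin and PBS arrays, so the Duox2-/- flagellin array stood above the other arrays. The wild-type response and the genotype difference under PBS both subtract the wild-type PBS array, the array in which most members were lowest.

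**Figure D2:**
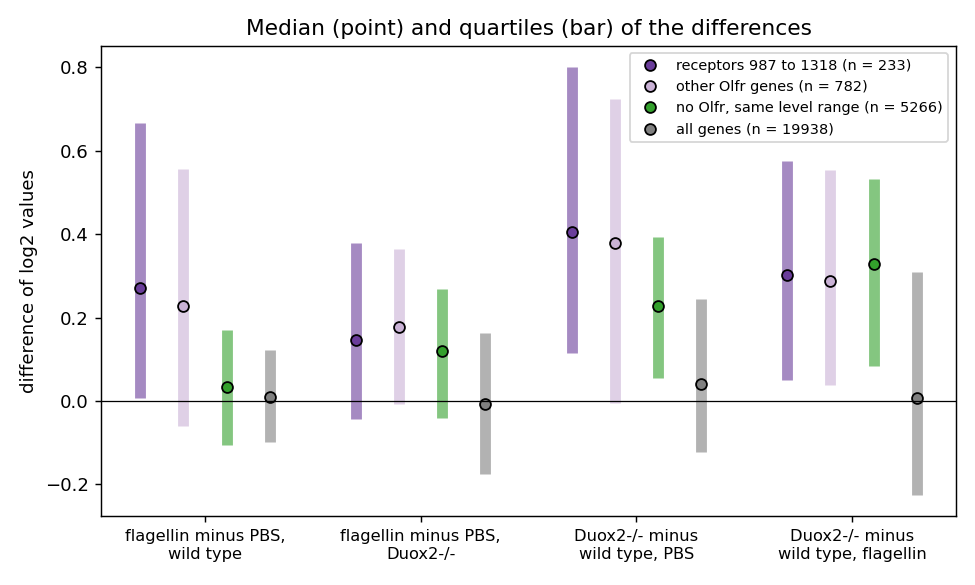
Log2 differences in the 4 pairwise comparisons for the members and for the gene sets they are set beside. Circles are medians and bars span the quartiles. The member medians are 0.27, 0.15, 0.40 and 0.30 in the order wild-type response, Duox2-/- response, genotype under PBS and genotype after flagellin.

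Genes other than Olfr with means in the members' quartile range shifted as well. Over 5266 such genes the median difference was 0.03 for flagellin in wild type, 0.12 for flagellin in Duox2-/-, 0.23 for genotype under PBS and 0.33 for genotype after flagellin. Set against these genes, the members' medians were 0.24, 0.03, 0.18 and -0.03 in the same order. In 4 groups of members from the lowest to the highest mean, the genotype difference after flagellin had medians of 0.29, 0.34, 0.31 and 0.22, where other genes in those ranges had 0.22, 0.36, 0.32 and -0.11. The members thus lay close to other genes in the middle groups and above them in the highest. By signal, the wild-type response of the members had medians of 0.23, 0.26, 0.59 and 0.08 in these groups, while other genes in those ranges had 0.00, 0.03, 0.04 and -0.01. For the 42 members with a mean of at least 6.52, the median of all values, the wild-type median was -0.01, although 8 of them were at least 2-fold higher.

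The 2 flagellin responses share no array. A total of 139 members (59.7%) were above 0 in both, against 54.9% of other Olfr genes and 26.6% of all genes. Below 0 in both were 26 members (11.2%), against 25.7% of all genes. These shares were not counted for genes of like signal. Members are not independent replicates. Across them Pearson's r of the 2 responses was 0.48 and Spearman's rho was 0.452 (n = 233 members read on the same 4 arrays). At least 2-fold higher in both were 4 members (1.72%), Olfr1097, Olfr1257, Olfr1261 and Olfr1263, against 1.02% of other Olfr genes and 0.1% of all genes. In opposite directions at 2-fold were 0 members, against 0.0502% of all genes. The response was larger in wild type for 138 members (59.2%), for 55.0% of other Olfr genes and for 52.9% of all genes. With 1 array a group, a difference between the responses was not tested.

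Olfr1257 had 6.53 and 5.40 in the Duox2-/- flagellin and PBS arrays, against 6.39 and 3.94 in the wild-type flagellin and PBS arrays, log2 differences of 1.13 in Duox2-/- and 2.46 in wild type. Both flagellin arrays lay above both PBS arrays, and the wild-type PBS array stood lowest. Olfr1097 had 6.30 and 4.78 in the Duox2-/- flagellin and PBS arrays, against 5.79 and 4.53 in the wild-type flagellin and PBS arrays, log2 differences of 1.53 in Duox2-/- and 1.26 in wild type. Here the PBS arrays of the genotypes lay close together. Olfr1263 had 7.74 and 6.40 in the Duox2-/- flagellin and PBS arrays, against 6.62 and 5.38 in the wild-type flagellin and PBS arrays. Olfr1261 had 6.02 and 4.86 in the Duox2-/- flagellin and PBS arrays, against 5.14 and 3.98 in the wild-type flagellin and PBS arrays. These receptors were higher both with flagellin and in the arrays labelled Duox2-/-. The values of Olfr1257, Olfr1097 and Olfr1261 in both PBS arrays lay below the all-gene lower quartile of the array, and so near background. Olfr1261, Olfr1262 and Olfr1263 are the 3 members of family MOR234 and lie next to each other, followed by Olfr1264. Receptors of a family share sequence, and whether their probes read each other's transcripts was not tested.

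**Figure D3:**
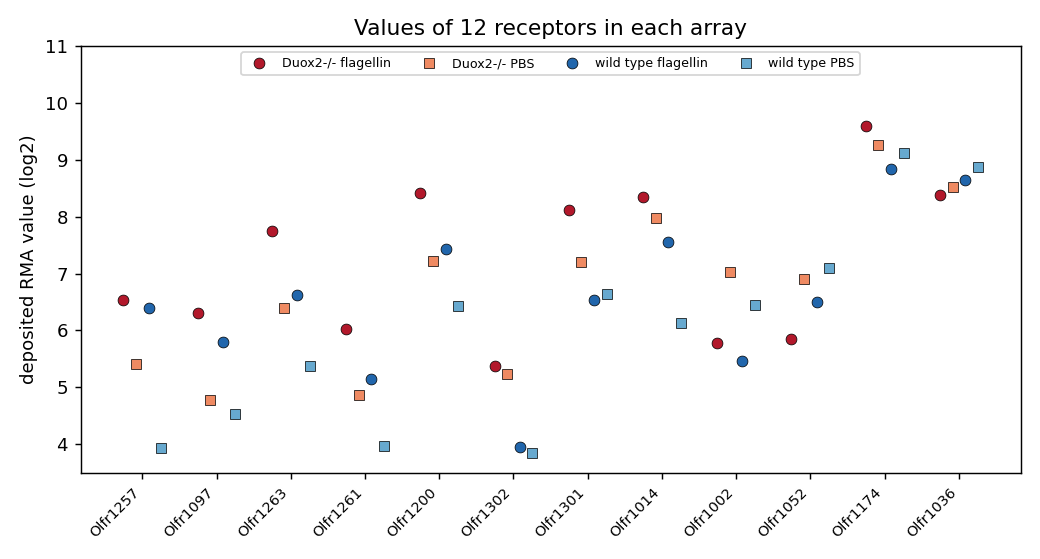
Log2 values in the 4 arrays for members named in the text. Olfr1257, Olfr1097, Olfr1261 and Olfr1263 are higher in both flagellin arrays than in both PBS arrays, while Olfr1302 separates by genotype at values near background.

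Members at least 2-fold higher in both genotype comparisons numbered 3 (1.29%), against 2.17% of other Olfr genes and 0.176% of all genes. The share was thus lower in the members than in the other Olfr genes. Olfr1302 had 5.37 and 5.24 in the Duox2-/- flagellin and PBS arrays, against 3.95 and 3.84 in the wild-type flagellin and PBS arrays. Its genotypes did not overlap, at log2 differences of 1.42 after flagellin and 1.40 under PBS, and its flagellin differences were 0.11 in wild type and 0.13 in Duox2-/-. All its values lay below the all-gene lower quartile of the array, and so near background, where the size of a difference is uncertain. Olfr1265 had 6.61 and 6.06 in the Duox2-/- flagellin and PBS arrays, against 5.53 and 5.05 in the wild-type flagellin and PBS arrays. Olfr1263, described above, was the remaining one. Olfr1014 had 8.34 and 7.98 in the Duox2-/- flagellin and PBS arrays, against 7.55 and 6.13 in the wild-type flagellin and PBS arrays, so its genotype difference was 1.85 under PBS and 0.79 after flagellin. Other members high under PBS were Olfr1016 at 1.81, Olfr1216 at 1.80, Olfr1259 at 1.74, Olfr1090 at 1.68 and Olfr1018 at 1.66, whose differences after flagellin lay between -0.08 and 0.64. For each of them the wild-type PBS array was the lowest of the 4. That value lay below the array's all-gene lower quartile, 5.44, and so near background, for Olfr1216, Olfr1259, Olfr1090 and Olfr1018.

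The difference varied along the chromosome. The members were taken in RefSeq order in 5 runs, of which the first 4 divide a stretch from Olfr987 to Olfr1274 and the fifth holds Olfr1275 to Olfr1317 beyond a gap of over 1 Mb. The wild-type medians were -0.06 for Olfr987 to Olfr1056, 0.28 for Olfr1057 to Olfr1136, 0.21 for Olfr1137 to Olfr1214, 0.67 for Olfr1215 to Olfr1274 and 0.27 for Olfr1275 to Olfr1317. The Duox2-/- response had medians of 0.01, 0.04, 0.11, 0.37 and 0.35 in the same runs. The genotype difference under PBS had medians of 0.04, 0.36, 0.40, 0.80 and 0.40, and that after flagellin 0.12, 0.07, 0.35, 0.58 and 0.40. The run Olfr1215 to Olfr1274 had the highest median of the 5 in all 4 comparisons, and 10 of its 49 members were at least 2-fold higher in the wild-type response. The first run, with 3 such members of 50, lay near 0. The runs were chosen with values known and no test was made between them. They also differed in signal, with median 4-array means of 6.18, 5.05, 4.43, 5.66 and 4.48 in the same order. The part of signal in the differences between runs was not tested. Outside the range, Olfr828 to Olfr986 had medians of 0.11 in wild type and -0.01 in Duox2-/-, and Olfr1417 to Olfr1505 had 0.42 and 0.21, so values of this size were not found in the members only.

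**Figure D4:**
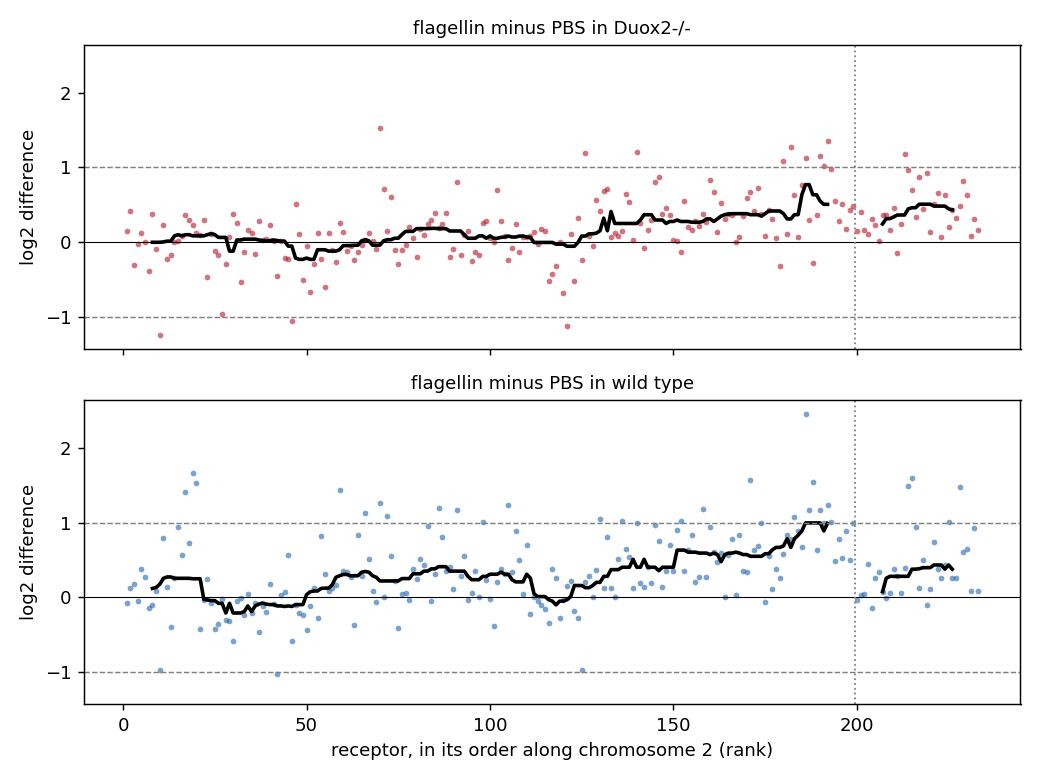
Log2 difference for flagellin minus PBS of each member (points, Duox2-/- above, wild type below) in the order of the genes along chromosome 2, with a running median of 15 members. The running medians are highest in the run Olfr1215 to Olfr1274, where the medians are 0.67 in wild type and 0.37 in Duox2-/-.

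Families, which lie close together on the chromosome, differed in the same way. Of the 18 families with at least 5 members, MOR232 had the highest wild-type median, 0.89 over 7 members, with 0.25 in Duox2-/-. MOR233, with 17 members from Olfr1211 to Olfr1232, was above 0 in wild type for 17 of 17 members and in Duox2-/- for 16, with medians of 0.60 and 0.36. MOR231, with 13 members from Olfr1234 to Olfr1256, had medians of 0.67 and 0.59 and was above 0 for 13 and 12 members. MOR225, with 9 members, had 0.53 and 0.56. Families near 0 or below it in both responses included MOR174 (11 members, medians -0.03 and -0.03) and MOR175 (5 members, -0.14 and -0.18). Members of a family share sequence and neighbourhood, so they are not independent.

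The 7 members of MOR213, Olfr1006 to Olfr1016, stood out in the first run. Their medians were 7.90 and 7.67 in the Duox2-/- flagellin and PBS arrays, and 7.54 and 6.03 in the wild-type flagellin and PBS arrays. All 7 were above 0 in the wild-type response and in both genotype comparisons, with medians of 0.79 for wild-type flagellin, 1.05 for genotype under PBS and 0.36 for genotype after flagellin. In the arrays labelled Duox2-/- the flagellin difference had a median of 0.22. The wild-type PBS array was the lowest for this family, as for Olfr1016 at 6.03 against 7.70 to 8.06 in the other arrays.

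**Figure D5:**
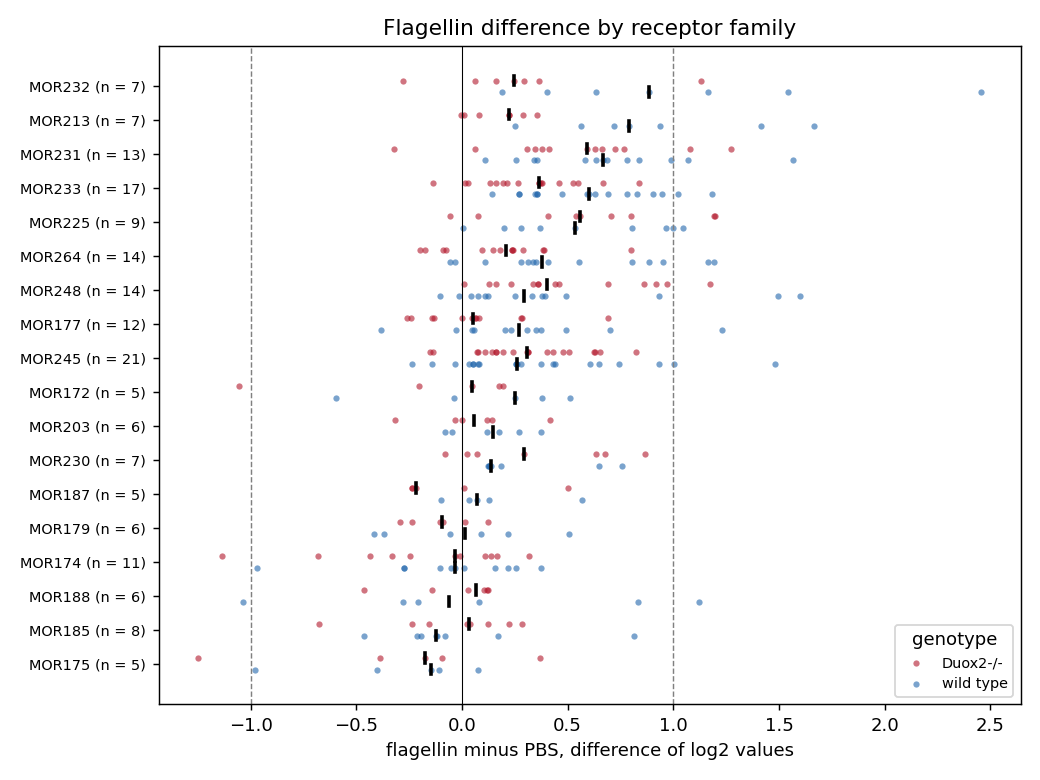
Log2 difference for flagellin minus PBS of the members in the 18 MOR families with at least 5 members, in Duox2-/- and in wild type; bars mark medians and points members. MOR232, MOR213, MOR231 and MOR233 have the highest wild-type medians, and MOR175 the lowest at -0.14.

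An additive model in limma, with a term for flagellin and a term for genotype, fitted the mean difference of each over both strata. It leaves 1 residual degree of freedom, from how unlike the paired differences were, and borrows most of its spread from all genes (9.004 prior degrees of freedom). Its p-values set the mean difference against that mostly borrowed spread and do not measure the spread between mice. Unlike pairs could be called, such as Olfr1018 for genotype, at 1.66 under PBS and 0.24 after flagellin. With Benjamini-Hochberg adjustment over all genes at 0.05, 12 members (5.15%; 0.261% of all genes) were called higher with flagellin and 1 lower (0.0401% of all genes). For the same term 25 of the 782 other Olfr genes (3.2%) were called higher. Olfr1097 rose by 1.39 ± 0.14 (SE, limma adjusted p = 0.00697), Olfr1263 by 1.29 ± 0.14 (adjusted p = 0.00747) and Olfr1257 by 1.79 ± 0.25 (adjusted p = 0.0186). Olfr1261, Olfr1200, Olfr1294, Olfr1262, Olfr1264, Olfr1123, Olfr1253, Olfr1225 and Olfr1208 also rose, with limma adjusted p from 0.0111 to 0.0355. Of the 12, 7 lie in the run Olfr1215 to Olfr1274.

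Olfr1002, of family MOR175, was the single member that the model called lower with flagellin. It had 5.77 and 7.02 in the Duox2-/- flagellin and PBS arrays, against 5.46 and 6.44 in the wild-type flagellin and PBS arrays, and both flagellin arrays lay below both PBS arrays. It fell by 1.11 ± 0.14 on the log2 scale (SE, limma adjusted p = 0.0139).

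For genotype, 75 members (32.2%; 7.03% of all genes) were higher in Duox2-/- and 1 was lower (2.39% of all genes), with 244 of the other Olfr genes (31.2%) higher. Olfr1302 rose by 1.41 ± 0.14 (SE, limma adjusted p = 0.00249) and Olfr1265 by 1.04 ± 0.14 (adjusted p = 0.00669). The values of Olfr1302 lie near background, as given above. By run from Olfr987 onward the 75 numbered 8 of 50, 6 of 50, 18 of 50, 30 of 49 and 13 of 34. Of the 12 members called higher with flagellin, 8 were also called higher for genotype, a count over terms fitted to the same 4 arrays. The lower member was Olfr1033, with a change of -0.71 ± 0.16 (SE, limma adjusted p = 0.0310). It had 4.78 and 5.32 in the Duox2-/- flagellin and PBS arrays, against 5.76 and 5.77 in the wild-type flagellin and PBS arrays. Both Duox2-/- values lay below the all-gene lower quartile of their array, and so near background. After cyclic loess between arrays the model called 0 members for either term, and over all genes 0 for flagellin and 1 for genotype. For flagellin the lowest limma adjusted p of a member was then 0.139, and 87 members (37.3%) had an unadjusted p under 0.05, against 5.84% of all genes. For genotype the lowest was 0.0751, and 88 members (37.8%) had such a p, against 18.1% of all genes.

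The genes of the mature olfactory neuron had a median below that of the receptors in 3 comparisons and above it in the Duox2-/- response. The list of 24 genes for the mature neuron and odour transduction had median differences of 0.11 for flagellin in wild type, 0.30 for flagellin in Duox2-/-, -0.01 for genotype under PBS and 0.16 for genotype after flagellin, with 0 of 24 genes at 2-fold in each. Omp, a marker of mature neurons, had 12.16 and 11.85 in the Duox2-/- flagellin and PBS arrays, against 11.99 and 11.94 in the wild-type flagellin and PBS arrays. Gnal had 10.75 and 10.52, against 10.65 and 10.60, and Adcy3 10.33 and 9.98, against 10.24 and 10.17, in the same arrays. Set against the list's median difference, the members' median was 0.16 in the wild-type response, -0.16 in the Duox2-/- response, 0.41 for genotype under PBS and 0.14 for genotype after flagellin. The list's medians were 10.14, 9.90, 10.01 and 9.99 in the 4 arrays as ordered above, far above those of the members. Genes other than Olfr in the members' quartile range had genotype medians of 0.23 under PBS and 0.33 after flagellin. In the range of the members' highest group these were -0.04 and -0.11. Members and neuron genes were not compared at like signal. Among 19 genes of receptor choice and transcription, such as Lhx2 at 9.0, 8.71, 8.72 and 8.56 in the 4 arrays as ordered above, limma called 0 for either term, and their medians lay between -0.02 and 0.06.

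Markers of zones and other cell types are given beside the members' shift. Ncam2, an adhesion molecule of ventral olfactory neurons, had 8.28 and 7.98 in the Duox2-/- flagellin and PBS arrays, against 7.88 and 7.27 in the wild-type flagellin and PBS arrays, with the wild-type PBS array lowest as it was for most members. It rose with genotype by 0.56 (limma adjusted p = 0.0435). Ncam2 was the only 1 of the 24 mature neuron genes called for genotype, where 7.03% of all genes were called higher. Nqo1, a marker of dorsal neurons, had 9.996 and 9.86 in the Duox2-/- flagellin and PBS arrays, against 9.98 and 10.27 in the wild-type flagellin and PBS arrays, with the wild-type PBS array highest, and was not called (limma adjusted p = 0.979 for flagellin and 0.428 for genotype). The 10 skeletal muscle genes had medians of 5.75, 8.15, 6.72 and 5.32 in the 4 arrays as ordered above, and the 12 neutrophil genes 6.77, 6.44, 7.31 and 5.65. The wild-type PBS array was also lowest for both of these lists. The additive model called 1 of the 10 muscle genes higher for genotype, and of the neutrophil genes 1 higher for flagellin and 1 lower for genotype. The 11 ciliated cell genes lay against the members, with medians of -0.20 and -0.29 for flagellin in wild type and Duox2-/-, and -0.20 and -0.19 for genotype under PBS and after flagellin. Above 0 were 0, 1, 0 and 1 of the 11 in that order. Of 9 sustentacular and Bowman gland genes 1 was above 0 for genotype under PBS. Their medians, with those of 12 immature neuron genes and 7 progenitor or basal genes, lay between -0.38 and 0.27. Limma called 2 progenitor or basal genes and 1 sustentacular gene lower for genotype. The part of these cell types and of zones in the members' shift was not tested.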

How the data were processed

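The deposited log2 values were made by the authors with RMA in Affymetrix Expression Console 1.1, per the submitters' processing notes. RMA corrects background, equalises the arrays' distributions and summarises probe sets. The probe sets' genome build was not given in the sources used here. No further normalisation was applied to the 35556 probe sets. A gene took its single-gene probe set with the highest 4-array mean, and a probe set paired with several genes was kept apart. Values are on the log2 scale, and low ones lie near background. Both this and the number of arrays, 1 a group, limit the precision.

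Comparisons were differences of log2 values, counted at 2-fold with no filter on low values. The additive model used lmFit and eBayes of limma 3.58.1 (R 4.3.3) with 9.004 prior degrees of freedom and Benjamini-Hochberg adjustment. It was run on simulated data with a flagellin shift only and the same spread for each gene. That run does not show how the calls behave where the paired differences are unlike. Other work used Python 3.11.15, numpy 2.4.6, pandas 2.3.3 and matplotlib 3.10.9. RefSeq symbols and order come from GRCm38.p6.

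Named members were the 10 with the highest mean, the 6 highest and 6 lowest of each comparison, those 2-fold alike in both responses or both genotype comparisons, up to 12 called in each direction, and the ends of the range. Other members were named after their values were seen. The members, lists and families were chosen with earlier results of these data known. Alternatives were other scalings, probe set rules, folds and filters, and 2 shifts relative to other genes, chosen after seeing the data.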

Additional observations from a re-analysis of the deposited data

Results flagged for a closer look

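Probe sets that list several genes were outside the comparisons above, and 16 of them list a member number. At least 2-fold higher with flagellin in wild type were 3, with a pair of equal values counted once. Of all genes with a single-gene probe set, 0.838% were higher by that size in wild type and 0.221% in Duox2-/-. The probe set of Olfr1197 and Olfr1196 differed by 1.17 in Duox2-/- and by 1.49 in wild type on the log2 scale. The probe set of Olfr1197, Olfr1196 and Olfr1200 differed by 1.40 in Duox2-/- and by 1.69 in wild type, and it shares Olfr1200 with a probe set that was called higher. The probe set of Olfr1565, Olfr1274 and Olfr1506, which is present as a pair with equal values, differed by 0.28 in Duox2-/- and by 1.14 in wild type.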

How the results depend on the processing

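No paired analysis was possible because each group had a single array. Leaving out an array was not run, since the model would then have no residual degrees of freedom, and the planned check of near-identical receptors was not run, because no protein sequences were used here. All members lie on chromosome 2, so restricting to it changed nothing. At 1.5-fold the members higher numbered 67 (wild-type response), 35 (Duox2-/- response), 87 (genotype, PBS) and 55 (genotype, flagellin). The share of all genes at 1.5-fold was not counted, so these numbers show only how the count of members depends on the threshold. With a 4-array mean of at least the median of all values, 42 members gave a wild-type median of -0.0102, which reversed, with 8 higher, 2 higher in Duox2-/-, a median of 0.21 with 10 higher under PBS, and 2 higher after flagellin. Cyclic loess gave medians of 0.25 (25 higher) under PBS and 0.12 after flagellin, and quantile normalisation gave 0.19 after flagellin. Relative to the mature neuron list, whose signal is far higher, the medians were 0.16 (wild type), -0.16 (Duox2-/-, reversed, 2 higher) and 0.14 (genotype after flagellin, 3 higher). Relative to genes of like signal they were 0.0269 (Duox2-/-), 0.18 (genotype under PBS, 21 higher) and -0.0263 (genotype after flagellin, reversed, 3 higher). Median centring, probe set means and the addition of probe sets of several genes kept the sign of all 4 medians. In limma, flagellin-higher members numbered 0 under cyclic loess and 3 under the filter. Genotype-higher members numbered 47 when centred, 29 under quantile normalisation, 0 under cyclic loess and 12 under the filter. Shares of all genes under these settings were not counted, at 2-fold or in limma, apart from limma after cyclic loess. These counts therefore show only how the number of members depends on the processing. The filter tests fewer genes; the cause of the other changes was not tested. The named members' differences were recomputed as 192 values under other scalings and probe set rules, and 0 of these reversed. Most of these members were named for large differences, so a reversed sign was unlikely from the outset. Only 3 members had over 1 single-gene probe set, so the probe set rule left most values unchanged.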

Other observations

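The probe set of Olfr1166, Olfr1170 and Olfr1167 had 6.32 and 7.41 in the Duox2-/- flagellin and PBS arrays, against 6.91 and 7.29 in the wild-type flagellin and PBS arrays. Its flagellin difference was -1.09 in Duox2-/- and -0.38 in wild type. The single-gene probe set of Olfr1167 gave -1.13 in Duox2-/- and lay above 0 in wild type.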
